A study of Mus musculus with 6 samples.

Results

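The genes described here encode the RIPK1, RIPK3, MLKL, ZBP1 necroptosis machinery and the caspase-8 complex that opposes it, together with the enzymes that add ubiquitin to RIPK1 or remove it. They are Ripk1, Ripk3, Mlkl, Zbp1, Casp8, Fadd, Cflar, Cyld, Birc2 and Birc3, which make up 10 of the 54532 genes listed in each library. They were chosen by name, with earlier results of these data known. RNA-seq of LPS-treated iBMDMs set 3 control libraries against 3 PGAM5 KD libraries. The iBMDM line comes from mouse bone marrow macrophages that were immortalized with v-raf and v-myc retroviruses. Control cells carried a lentiviral control shRNA (shControl) and PGAM5 KD cells carried an shRNA against Pgam5 (shPGAM5). Both groups received LPS, the bacterial ligand of TLR4, at 100 ng/ml for 4 hours, so the values are levels after LPS and not an induction over resting cells. Each group was a line with its own shRNA, and an effect of losing PGAM5 cannot be told apart from another difference between the lines.

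Necroptosis is a lytic form of programmed cell death. Downstream of TNF receptor 1, of TLR3 or TLR4 through the adaptor TRIF, or of the nucleic acid sensor ZBP1, the kinase RIPK3 is activated, alone or through RIPK1, and phosphorylates the pseudokinase MLKL, which then breaks the plasma membrane. Caspase-8, recruited by the adaptor FADD and paired with its inactive homolog cFLIP (Cflar), cleaves RIPK1 and RIPK3 and so holds necroptosis back, and as a homodimer it starts apoptosis instead. The ubiquitin ligases cIAP1 (Birc2) and cIAP2 (Birc3) modify RIPK1, and the deubiquitinase CYLD reverses this. In macrophages treated with LPS, blocking caspases is a standard way to trigger necroptosis. PGAM5, the mitochondrial phosphatase that was knocked down, has been described as a partner of the RIPK1 and RIPK3 complex.

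The depth recovered from the deposited FPKM, which are fragments per kilobase of exon adjusted for depth, was between 18163464 and 24388917 fragments per library. Summed over all genes, the control libraries held 304393 to 304889 FPKM and the PGAM5 KD libraries 317936 to 324298 FPKM, so small differences depend on how libraries are scaled to each other. Pgam5 itself was at 17.1, 12.97 and 13.4 FPKM in control and 4.33, 5.75 and 4.53 FPKM in PGAM5 KD libraries, lower in every library labelled PGAM5 KD. Of 8 macrophage markers, 8 had a mean of at least 1 FPKM, and their sum was 2977 to 3062 FPKM in control and 2689 to 2717 FPKM in PGAM5 KD libraries. Of these 8, 4 were higher (Adgre1, Itgam, Cd14 and Fcgr1) and 3 lower (Cd68, Csf1r and Lyz2) in PGAM5 KD cells in limma, and the part of this in the values below was not tested. Neutrophil, T cell, B cell, fibroblast, dendritic cell and natural killer cell markers each summed, per cell type, to at most 0.568 FPKM in any library. The neutrophil markers S100a9, Ly6g, Retnlg, Elane and Ltf were at 0 in all 6 libraries. In bulk RNA, fewer cells that express a gene and less RNA per cell cannot be told apart. The labels number the libraries but do not say whether they were separate cultures or infections, so the p-values may not cover the spread between cultures or infections. Limma sets each difference against the spread between libraries within the groups, drawn toward a trend over all genes tested.

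Promoter sequences are shown for Mlkl and Casp8, the higher members whose calls held in all alternative settings, and for Cflar, which lies upstream of Casp8 on the same strand of chromosome 1 and fell. Each run holds the 250 bases before the annotated start of the gene in RefSeq (GRCm38.p6), read 5′ to 3′ on the strand of the gene. Capitals mark a match to GAAANGAAA, a pair of GAAA blocks with a single base between them, on either strand. These letters were searched for after the sequences had been seen. The start of Casp8 in RefSeq lies inside the span of the gene in the GENCODE annotation, which starts further upstream, and no exon of that annotation overlaps the run shown.
Mlkl, minus strand, chr8:111338206-111338455: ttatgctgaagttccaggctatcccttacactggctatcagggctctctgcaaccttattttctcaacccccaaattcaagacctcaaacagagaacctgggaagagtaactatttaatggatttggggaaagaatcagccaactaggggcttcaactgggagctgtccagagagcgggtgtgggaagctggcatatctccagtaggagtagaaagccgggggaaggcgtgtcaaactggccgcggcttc
Casp8, plus strand, chr1:58802252-58802501: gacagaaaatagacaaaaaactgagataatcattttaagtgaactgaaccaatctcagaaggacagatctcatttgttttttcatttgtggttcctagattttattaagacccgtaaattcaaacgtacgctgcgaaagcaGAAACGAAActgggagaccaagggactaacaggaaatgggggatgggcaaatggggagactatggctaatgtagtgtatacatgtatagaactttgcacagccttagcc
Cflar, plus strand, chr1:58711241-58711490: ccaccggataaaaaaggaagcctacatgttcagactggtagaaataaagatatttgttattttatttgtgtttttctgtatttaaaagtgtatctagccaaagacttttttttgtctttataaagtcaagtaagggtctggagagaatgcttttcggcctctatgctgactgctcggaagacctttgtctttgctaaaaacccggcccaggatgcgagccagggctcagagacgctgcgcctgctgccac

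RefSeq windows from 250 bases before to 50 bases after the start were found for 9 of the 10 members (Ripk1 and Birc2 have more than a single start). GAAANNGAA, the core of the interferon-stimulated response element (ISRE), was in the windows of Cflar, Cyld, Ripk1 and Ripk3, and in 8.56% of all 32851 windows. TTCNNNGAA, the STAT-type GAS element, was in a window of Ripk1 and in 8.30% of all windows. GGGANTTNC, a form of the NF-κB (kB) site, was in the window of Cyld and in 4.26% of all windows. GAAANGAAA was in the windows of Casp8 and Birc2 and in 3.17% of all windows. Both strands were searched, and a match is a description of letters, not a site of binding. None of these letters was in the window of Mlkl, and the match in Cflar lies after the start, outside the run shown.

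On the log2(FPKM + 1) scale, 6 of the 10 members differed between the groups at an adjusted p-value under 0.05 in limma, against 31.7% of the 10540 genes tested. Mlkl, Casp8, Zbp1 and Ripk3 were higher in PGAM5 KD cells, 4 of 10 members against 16.8% of all genes tested. Zbp1 passed the filter on low values only through the PGAM5 KD libraries, and without it 3 of 9 members were higher. Fadd and Cflar were lower, 2 of 10 members against 14.9% of all genes tested. As the members were chosen with earlier results of these data known, these shares are a description and not a test. Ripk1, Cyld, Birc2 and Birc3 were not past the threshold. The count of higher members was 2 without control replicate 2 or 3 or without PGAM5 KD replicate 3, and that of lower members was 0 without control replicate 1 or 3 or PGAM5 KD replicate 2 and 1 without any of the other libraries. With no filter on low values 2 members were higher and 1 was lower, against 6.36% and 6.09% of the 20816 genes then tested. The libraries of both groups did not overlap for 6 members, against 47.1% of all genes tested. None of the 10 reached an absolute log2 fold change above 1 at an adjusted p-value under 0.05 in limma, as 1.32% of all genes tested did. The median log2 fold change was 0.034 over the members and 0.013 over all genes tested.

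**Figure D1:**
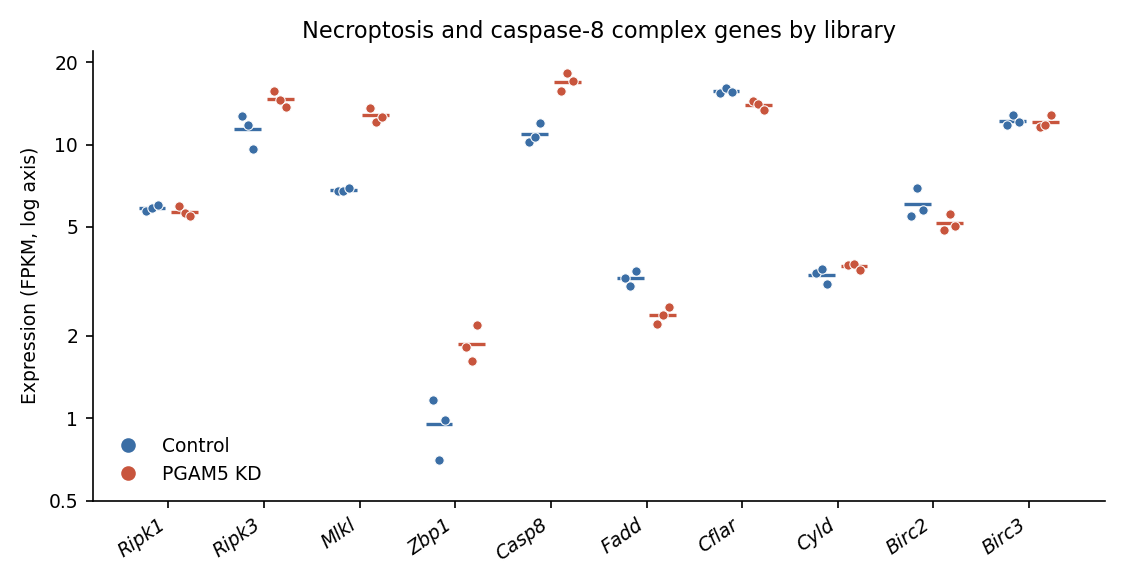
Expression of the 10 genes in FPKM on a log axis, with a point per library (3 control in blue, 3 PGAM5 KD in red) and a bar at the mean of each group. The libraries of both groups are apart for Ripk3, Mlkl, Zbp1, Casp8, Fadd and Cflar and overlap for Ripk1, Cyld, Birc2 and Birc3.

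Mlkl (ENSMUSG00000012519), on chromosome 8 of GRCm38 (minus strand) between 111311797 and 111338177, encodes the pseudokinase that carries out necroptosis. It had 6.79, 6.78 and 6.94 FPKM in control libraries and 13.6, 12.1 and 12.6 FPKM in PGAM5 KD libraries, with between 284 and 710 fragments per library. All PGAM5 KD libraries were far above all control libraries, and the control libraries lay close to each other. The mean was 6.84 ± 0.0901 FPKM in control and 12.8 ± 0.768 FPKM after knockdown (SD, n = 3), a ratio of 1.87. The log2 fold change was 0.81 (standard error, SE, 0.06, limma adjusted p = 0.000108), the largest of the 10 members on the log2(FPKM + 1) scale, although mean FPKM rose by a larger factor in Zbp1. It kept its direction and its call in all 16 alternative settings, with log2 fold changes from 0.74 to 0.90.

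Ripk3 (ENSMUSG00000022221), the kinase that activates MLKL, lies on chromosome 14 (minus strand) between 55784995 and 55788865. It had 12.7, 11.7 and 9.61 FPKM in control and 15.6, 14.6 and 13.7 FPKM in PGAM5 KD libraries. The groups did not overlap, but control replicate 3 stood below the other control libraries and widened the spread. The log2 fold change was 0.35 (SE 0.10, limma adjusted p = 0.0363). This call was lost in 9 of 16 alternatives, with scaling to TPM giving a log2 fold change of 0.27 and a limma adjusted p of 0.0768. It was lost without control replicate 2 or 3 (limma adjusted p = 0.0700 and 0.0596) and without PGAM5 KD replicate 1, 2 or 3 (limma adjusted p = 0.0955, 0.0856 and 0.0591).

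Ripk1 (ENSMUSG00000021408) encodes the kinase and scaffold that binds RIPK3 and FADD. It lies on chromosome 13 from 34002363 to 34037147, where 241 of its 8344 exon bases overlap Serpinb6a on the other strand. It had 5.74, 5.84 and 6.01 FPKM in control and 5.95, 5.62 and 5.48 FPKM in PGAM5 KD libraries. The groups overlapped, and the difference of -0.040 on the log2 scale missed the threshold (95% interval -0.17 to 0.093, limma adjusted p = 0.626). It was -0.11 with scaling to TPM, -0.068 without PGAM5 KD replicate 1, -0.024 without control replicate 3 and -0.018 without PGAM5 KD replicate 3. Serpinb6a was at 13.2 to 13.6 FPKM in control and at 17.4 FPKM in each PGAM5 KD library, and its part in the value of Ripk1 was not tested.

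Zbp1 (ENSMUSG00000027514), the sensor of Z-form nucleic acids that activates RIPK3 directly, lies on chromosome 2 (minus strand) between 173206612 and 173218923. It had 1.17, 0.702 and 0.987 FPKM in control and 1.82, 1.62 and 2.18 FPKM in PGAM5 KD libraries. It was the member with the lowest expression in both groups, with between 50 and 188 fragments per library, and the groups did not overlap. The ratio of the mean FPKM was 1.97, while the log2 fold change on the log2(FPKM + 1) scale, which understates the change of genes with low expression, was 0.56 (SE 0.14, limma adjusted p = 0.0209). With a pseudocount of 0.1 the log2 fold change was 0.92 (limma adjusted p = 0.0250), and with voom on recovered fragments it was 1.02 (limma adjusted p = 0.00384). The control mean of Zbp1 was below 1 FPKM, so it passed the filter on low values only through the PGAM5 KD libraries. Without Zbp1, 3 of 9 members were higher, against 16.8% of all genes tested. The call was lost without control replicate 2 or 3 (limma adjusted p = 0.0543 and 0.05001), without PGAM5 KD replicate 3 (limma adjusted p = 0.0721) and when low values were not filtered (limma adjusted p = 0.0535).

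Casp8 (ENSMUSG00000026029), which encodes the protease at the core of the complex, lies on chromosome 1 from 58795374 to 58847503. It had 10.2, 10.6 and 12.0 FPKM in control and 15.7, 18.2 and 16.99 FPKM in PGAM5 KD libraries, on 537 to 1199 fragments each. The groups were far apart, with the lowest PGAM5 KD library at 15.7 FPKM and the highest control library at 12.0 FPKM. The mean was 11.0 ± 0.944 FPKM in control and 16.96 ± 1.25 FPKM after knockdown (SD, n = 3), a ratio of 1.55. The log2 fold change was 0.59 (SE 0.08, limma adjusted p = 0.00163), and it kept its call in all 16 alternative settings, with log2 fold changes from 0.51 to 0.65.

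Cflar and Fadd, which encode partners of caspase-8, moved the other way, with calls that were lost in some alternatives. Cflar (ENSMUSG00000026031), which encodes cFLIP, lies on chromosome 1 from 58711508 to 58758884, with 36489 bases between its end and the start of Casp8. It had 15.5, 16.1 and 15.6 FPKM in control and 14.4, 14.03 and 13.4 FPKM in PGAM5 KD libraries, and the groups did not overlap. It had the most fragments of the 10 members, between 3228 and 4137 per library, and its log2 fold change was the smallest of those past the threshold (-0.16, standard error 0.05, limma adjusted p = 0.0337). The call was lost without control replicate 1, 2 or 3 (limma adjusted p = 0.0672, 0.0973 and 0.0773) and without PGAM5 KD replicate 2 or 3 (limma adjusted p = 0.0799 and 0.0980). Scaling to TPM gave a log2 fold change of -0.23 (limma adjusted p = 0.0104). The annotation holds a gene, Gm9845, that is 100% identical to the coding sequence of Cflar over 598 bases, and between 99.5% and 99.9% of the fragments on both genes were on Cflar.

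Fadd (ENSMUSG00000031077), the adaptor that brings caspase-8 to RIPK1 and to death receptors, lies on chromosome 7 (minus strand) between 144577318 and 144582463. It had 3.24, 3.05 and 3.46 FPKM in control and 2.21, 2.38 and 2.54 FPKM in PGAM5 KD libraries, so each PGAM5 KD library was below each control library. The ratio of the mean FPKM was 0.732, and the log2 fold change was -0.33 (SE 0.08, limma adjusted p = 0.0210). The call was lost without control replicate 1 or 3 (limma adjusted p = 0.0574 and 0.0684), without PGAM5 KD replicate 1 or 2 (limma adjusted p = 0.0550 and 0.0567) and when low values were not filtered (limma adjusted p = 0.0657). The antisense gene Faddos, which overlaps it, was at 0.418 FPKM or less in every library.

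**Figure D2:**
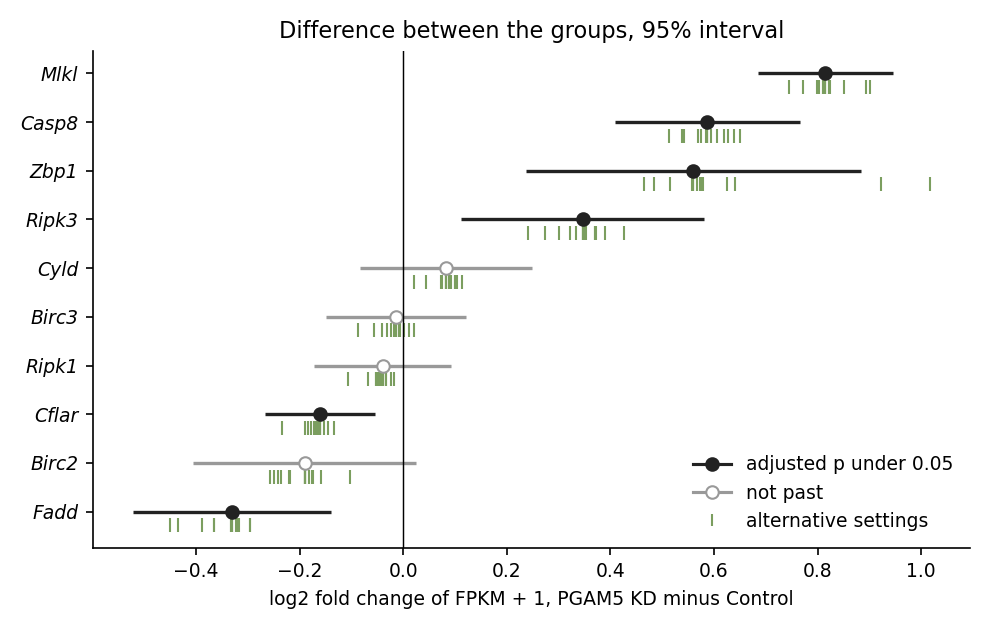
Log2 fold change of FPKM + 1, PGAM5 KD minus control, for each gene, with its 95% interval from limma (filled points, adjusted p under 0.05). Green ticks are the values under up to 16 alternative settings, which stay between 0.74 and 0.90 for Mlkl and between 0.51 and 0.65 for Casp8, and lie on both sides of 0 only for Birc3.

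Among the members that add ubiquitin to RIPK1 or remove it, Birc2, Birc3 and Cyld, none was past the threshold. Birc2 (ENSMUSG00000057367) and Birc3 (ENSMUSG00000032000) are paralogs that lie next to each other on chromosome 9 (minus strand), from 7818227 to 7837064 and from 7848699 to 7873186. Birc2, which encodes cIAP1, had 5.47, 6.92 and 5.75 FPKM in control and 4.89, 5.55 and 5.04 FPKM in PGAM5 KD libraries. The groups overlapped through PGAM5 KD replicate 2, and control replicate 2 was the highest library. The log2 fold change of Birc2 was -0.19 (95% interval -0.41 to 0.025, limma adjusted p = 0.158), and it was -0.10 without control replicate 2. Birc3, which encodes the NF-κB target cIAP2, had 11.7, 12.9 and 12.0 FPKM in control and 11.6, 11.8 and 12.8 FPKM in PGAM5 KD libraries, and the groups overlapped over most of their range. Its log2 fold change was -0.015 (95% interval -0.15 to 0.12, limma adjusted p = 0.869), and -0.087 with scaling to TPM. The coding sequences were 87.7% identical over a stretch of 243 bases and 76.3% over one of 1340 bases, and whether fragments were counted on the other paralog was not tested.

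Cyld (ENSMUSG00000036712), which encodes the deubiquitinase and lies on chromosome 8 from 88697028 to 88751945, had 3.39, 3.52 and 3.11 FPKM in control and 3.65, 3.66 and 3.48 FPKM in PGAM5 KD libraries. PGAM5 KD replicate 3 fell within the range of the control libraries. The log2 fold change was 0.083 (95% interval -0.083 to 0.25, limma adjusted p = 0.409). It was 0.044 without control replicate 3 and 0.022 with scaling to TPM.

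FPKM is a value per length, so the levels of the members could be ordered within each group, with the reservation that the exon length behind it covers the exons of all annotated transcripts of a gene. In control cells Cflar was highest at 15.7 FPKM, and all its libraries were above those of Birc3. Birc3, Ripk3 and Casp8 followed at 12.2, 11.4 and 11.0 FPKM, and neighbours among them overlapped. Mlkl, Birc2 and Ripk1 came next at 6.84, 6.05 and 5.86 FPKM with overlapping libraries, then Cyld and Fadd at 3.34 and 3.25 FPKM, which also overlapped, and Zbp1 at 0.953 FPKM.
In PGAM5 KD cells Casp8 was highest at 16.96 FPKM, with all its libraries above those of the next gene. Ripk3, Cflar, Mlkl and Birc3 followed at 14.6, 13.9, 12.8 and 12.1 FPKM, and each overlapped its neighbour in this order. Ripk1 and Birc2 were at 5.68 and 5.16 FPKM and overlapped, while Cyld at 3.59, Fadd at 2.38 and Zbp1 at 1.87 FPKM were apart from each other.

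Ratios between genes that act as a pair were compared within each library, where they depend little on the scaling between libraries. The log2 ratio of Cflar to Casp8 was 0.55, 0.55 and 0.35 in control libraries and -0.11, -0.35 and -0.32 in PGAM5 KD libraries. Cflar was thus above Casp8 in every control library and below it in every PGAM5 KD library, and the mean ratio of their FPKM was 1.44 in control and 0.826 in PGAM5 KD cells. The difference in log2 ratio was -0.75, and leaving out any 1 library gave -0.82 to -0.70.
The log2 ratio of Mlkl to Ripk3, substrate and kinase, was -0.82, -0.71 and -0.42 in control and -0.18, -0.25 and -0.11 in PGAM5 KD libraries, a difference of 0.47 without overlap between the groups. The log2 ratio of Ripk3 to Ripk1 was 1.02, 0.90 and 0.60 in control and 1.26, 1.23 and 1.18 in PGAM5 KD libraries, a difference of 0.39 without overlap. Without control replicate 3, the lowest control library, this difference was 0.27. For these 3 pairs the exact two-sided permutation p was 0.1, the smallest that 3 libraries against 3 allow, and 0.167 after Benjamini-Hochberg adjustment over the 5 pairs compared.
The ratios of Zbp1 to Ripk3 and of Birc3 to Birc2 overlapped between the groups. They differed by 0.21 and 0.18 on the log2 scale (exact permutation p = 0.4 and 0.2, and adjusted p = 0.4 and 0.25). With a pseudocount of 0.1 the difference for Zbp1 to Ripk3 was 0.55. It was 0.092 without control replicate 2, 0.095 without PGAM5 KD replicate 3 and 0.34 without control replicate 3.

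**Figure D3:**
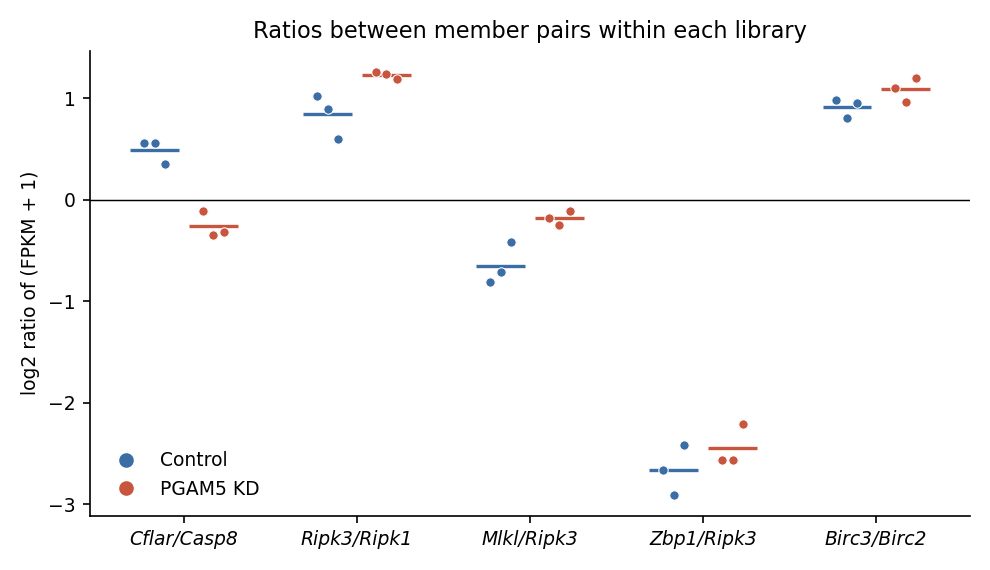
Log2 ratio of FPKM + 1 between 5 pairs of genes within each library, with a point per library and a bar at the mean of each group (control in blue, PGAM5 KD in red). The ratio of Cflar to Casp8 lies above 0 in the 3 control libraries and below 0 in the 3 PGAM5 KD libraries.

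Of 53 other genes of the pathway, 47 passed the filter of a mean FPKM of at least 1, and 11 were higher and 5 lower after knockdown at a limma adjusted p under 0.05, against 16.8% and 14.9% of all genes tested. The median log2 fold change of the 47 was 0.013, as over all genes tested. Scaling to TPM changed the split to 5 higher and 9 lower, against 10.3% and 21.6% of all genes tested under it, and among all genes tested it moved the share of higher calls from 52.9% to 32.3%. Without control replicate 3 there were 6 higher and 1 lower, without PGAM5 KD replicate 1 there were 7 higher and 3 lower, and without PGAM5 KD replicate 3 there were 5 higher. The count of lower genes was 3 without control replicate 1 or 2, and 2 without PGAM5 KD replicate 2. Of the 16 genes called, 5 kept their call in all alternatives, and none of the 16 changed direction under any of them. With no filter on low values the calls of Tnf, Tnfrsf1a, Fas, Ticam1 and Bid were lost (limma adjusted p = 0.0879, 0.0945, 0.0557, 0.0533 and 0.0667).

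Among death ligands and receptors, 3 of 5 tested genes were higher and 1 was lower, against 16.8% and 14.9% of all genes tested. Fas, the death receptor that recruits FADD, had 8.28, 9.96 and 8.50 FPKM in control and 10.6, 12.9 and 12.0 FPKM in PGAM5 KD libraries (log2 fold change 0.37, limma adjusted p = 0.0199). TNF receptor 2 (Tnfrsf1b), which lacks a death domain, fell from 25.0 to 20.2 FPKM (log2 fold change -0.30, limma adjusted p = 0.00214). Tnfrsf1a, which encodes TNF receptor 1, and Tnf itself had log2 fold changes of 0.19 and 0.16 (limma adjusted p = 0.0458 and 0.0298), and both calls were lost with scaling to TPM (limma adjusted p = 0.215 and 0.212), which left Fas (limma adjusted p = 0.0347) among these higher genes. With quantile normalization the log2 fold change of Tnf was 0.0036 (limma adjusted p = 0.956). Of these 4 genes Tnfrsf1b kept its call in all alternatives. The call of Fas was lost without control replicate 1 or 3 (limma adjusted p = 0.0615 and 0.0651) and without PGAM5 KD replicate 2 or 3 (limma adjusted p = 0.0611 and 0.0626). Those of Tnf and Tnfrsf1a were each lost without several single libraries, with limma adjusted p up to 0.0923 and 0.130. Fasl and Tnfsf10, which encodes TRAIL, were at 0.117 FPKM or less in every library and did not pass the filter.

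In the Toll-like receptor arm, Ticam1, which encodes the adaptor TRIF, was higher in PGAM5 KD cells (8.33 to 10.1 FPKM, log2 fold change 0.25, limma adjusted p = 0.0239). The 3 other genes tested were not past the threshold, so 1 of 4 was higher, against 16.8% of all genes tested. The call of Ticam1 was lost without control replicate 2 or 3 (limma adjusted p = 0.0612 and 0.0601) and without PGAM5 KD replicate 1 or 3 (limma adjusted p = 0.0517 and 0.0788), with scaling to TPM (limma adjusted p = 0.0707) and with no filter (limma adjusted p = 0.0533). Tlr3, the receptor of double-stranded RNA, was below the filter, at 0.254, 0.286 and 0.384 FPKM in control and 0.743, 0.761 and 0.598 FPKM in PGAM5 KD libraries, without overlap. It was singled out after its values were seen. With no filter on low values its log2 fold change was 0.38 (limma adjusted p = 0.0286).

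Of 11 adaptors, ubiquitin ligases and deubiquitinases of the TNF receptor complex, none was higher in limma and 2 were lower, against 16.8% and 14.9% of all genes tested. Spata2, which links CYLD to this complex, had a log2 fold change of -0.27 (limma adjusted p = 0.0157), and Xiap, an inhibitor of caspases, one of -0.13 (limma adjusted p = 0.0409). The call of Spata2 was lost without control replicate 3 or PGAM5 KD replicate 2 (limma adjusted p = 0.0553 and 0.0511). That of Xiap was lost when any single library was left out (limma adjusted p of 0.0624 to 0.113) and with a replicate block (limma adjusted p = 0.0905). Of 10 kinases and their adaptors, none was past the threshold in limma, against 31.7% of all genes tested in either direction. Their log2 fold changes ran from -0.25 to 0.084. With scaling to TPM 3 of the 10 were lower, against 21.6% of all genes tested under it.

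Among caspases, substrates of caspase-8 and the mitochondrial arm, Gsdmd, which encodes the pore-forming gasdermin D, was higher in PGAM5 KD cells by 0.22 on the log2 scale (limma adjusted p = 0.0236), a call lost with scaling to TPM (limma adjusted p = 0.102). Bid, a substrate of caspase-8 that carries its signal to mitochondria, was lower (-0.17, limma adjusted p = 0.0330). The call of Gsdmd was lost without control replicate 1 or 3 or PGAM5 KD replicate 1 or 3 (limma adjusted p = 0.0552, 0.0752, 0.0634 and 0.0764). With a replicate block it was lost too (limma adjusted p = 0.0604). That of Bid was lost without control replicate 1, 2 or 3 or PGAM5 KD replicate 1 or 2 (limma adjusted p = 0.0942, 0.0502, 0.0922, 0.0812 and 0.0992). In this list 4 genes tested were not past the threshold, while 31.7% of all genes tested were past it.

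Among other regulators of RIPK3, MLKL and ZBP1, 5 of 10 tested genes were higher and 1 was lower, against 16.8% and 14.9% of all genes tested. Scaling to TPM gave 3 higher and 2 lower, against 10.3% and 21.6% of all genes tested under it, as Adar and Cdc37 lost their calls (limma adjusted p = 0.0561 and 0.147). Flot1, which encodes a flotillin that removes MLKL from the membrane, had 2.55, 1.85 and 2.11 FPKM in control and 3.57, 3.58 and 3.97 FPKM in PGAM5 KD libraries (log2 fold change 0.58, limma adjusted p = 0.00606). Chmp4b and Chmp2a, subunits of the ESCRT-III complex that repairs membranes damaged by MLKL, were higher by 0.27 and 0.26 (limma adjusted p = 0.00121 and 0.00173). Dnm1l, which encodes the PGAM5 substrate Drp1, had 26.7, 26.9 and 29.1 FPKM in control and 24.0, 19.8 and 19.4 FPKM in PGAM5 KD libraries, lower without overlap (log2 fold change -0.38, limma adjusted p = 0.0142). The call of Dnm1l was lost without control replicate 3 (limma adjusted p = 0.0502), while those of Flot1, Chmp4b and Chmp2a were kept in all alternatives in which they were tested.

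**Figure D4:**
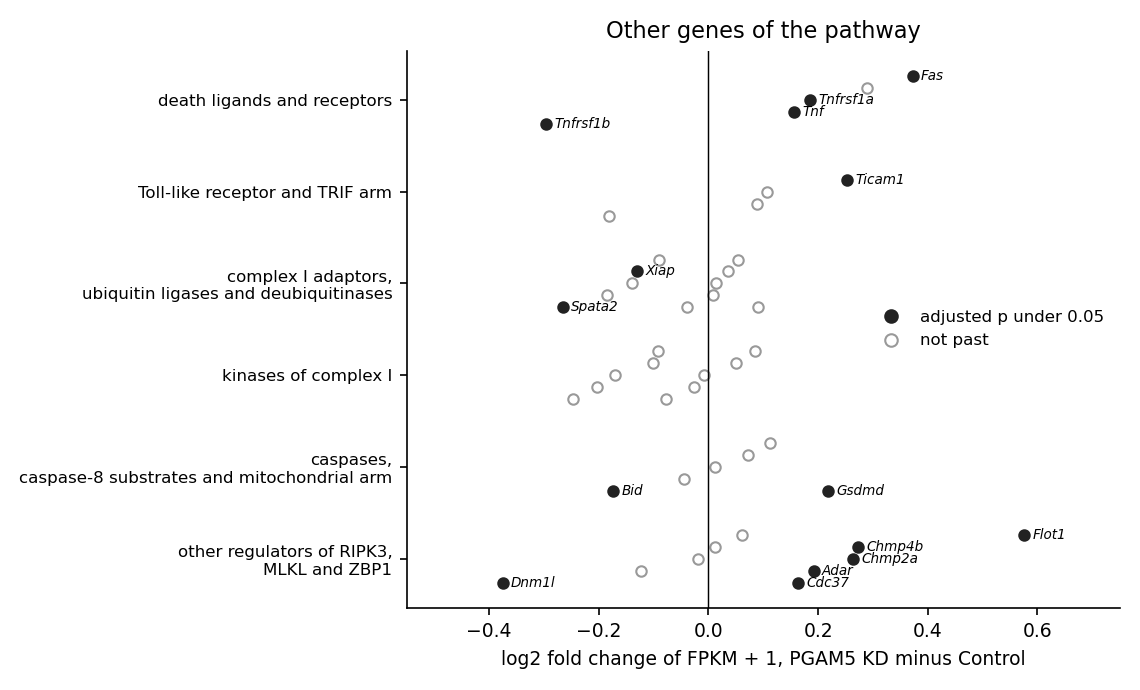
Log2 fold change of FPKM + 1, PGAM5 KD minus control, for the other genes of the pathway shown, in 6 lists, a point per gene, with filled and named points for an adjusted p under 0.05 in limma. The filled points run from -0.38 (Dnm1l) to 0.58 (Flot1), and the list of kinases holds none.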

How the data were processed

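Poly(A)-selected RNA of 6 libraries was sequenced. Per the submitters' processing notes, HISAT2 (2.0.5), featureCounts (1.5.0-p3) and the mm10 build were used. The authors deposited FPKM per gene and library, the only unit used here. The labels do not say whether libraries were directional, so overlapping genes on opposite strands cannot be told apart. With GENCODE M21 exon lengths, which 54495 of 54532 genes had, FPKM gave whole fragments for 96.8% to 97.1% of values under 1000 fragments (tolerance 0.01), from which depth was recovered.

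FPKM as deposited were compared on log2(FPKM + 1) by limma (3.58.1, R 4.3.3) with a mean-variance trend over the 10540 genes with a mean of at least 1, two-sided, with Benjamini-Hochberg adjustment. Ratios were compared by exact two-sided permutation. Scripts ran in Python (3.11.15), with pandas (2.3.3) and matplotlib (3.10.9), and look-alikes of at least 85% identity over 200 bases were found with blastn (2.17.0). The fit was tested on simulated data. The 16 alternatives changed the pseudocount, filter, scaling, weights, trend, replicate block or model, or left out a library. Named genes are the members, Pgam5 and, per list, at most 4 called genes with the largest change and no overlap. Cell type markers, genes that overlap or resemble a member, and Tlr3, Fasl, Tnfsf10, Adar and Cdc37 are named besides these. Members and lists were chosen with earlier results of these data known. A gene of the pathway lists is not reported here by name and is counted only in the totals.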

Additional observations from a re-analysis of the deposited data

How the results depend on the processing

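All members but Birc3 kept their direction in every alternative in which they were tested. Mlkl and Casp8 kept their calls in all 16, and Pgam5 stayed between -1.59 and -1.28 on the log2 scale. Birc3, at -0.015, changed sign without control replicate 2 (0.021), PGAM5 KD replicate 1 (0.011) and PGAM5 KD replicate 2 (0.0013), and none of these was past the threshold. Leaving out each library gave -0.056 to 0.021 for Birc3. With no filter on low values, where 20816 genes were tested, 2 members were higher and 1 was lower. At a mean of at least 5 FPKM, 1 was lower, since Zbp1, Fadd and Cyld were no longer tested. Leaving out each library in turn gave 2 to 4 higher and 0 to 1 lower members, 5 to 9 higher and 1 to 4 lower pathway genes, and 1211 to 1497 higher and 1129 to 1361 lower genes in all. Scaling to TPM gave 5 higher and 9 lower pathway genes, and 1084 higher genes in all in place of 1771, with 32.3% of calls higher in place of 52.9%. It moved the median of all genes from 0.013 to -0.054. The causes of the other changes were not tested.

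With a replicate block 1 member was lower, Fadd, because Cflar was lost (adjusted p = 0.0718 from limma), and 2652 genes were called in all in place of 3346. The replicate numbers do not pair the libraries: deviations of same-numbered libraries correlated at -0.020, 0.016 and -0.052, and no control library correlated best with the PGAM5 KD library of its own number. The block changed no other call of a member, and among the pathway genes called it lost Gsdmd and Xiap (limma adjusted p = 0.0604 and 0.0905). Zbp1, with 50 to 188 fragments per library, is the member with the least depth.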
